A study of Mus musculus with 2 samples.

Results

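The Trim genes encode tripartite motif proteins, and 58 of the 18193 genes named on the array belong to this family here. A member is a gene whose symbol is Trim followed directly by a digit and to which the platform annotation gives at least 1 probe set of its own, a probe set being a group of short probes against 1 transcript. The 58 members had 111 such probe sets among 45037. The choice used names only, not signals. Tripartite motif proteins carry a RING domain, 1 or more B-box zinc fingers and a coiled coil, and most of them are ubiquitin ligases, which attach ubiquitin to other proteins through the RING. Some members are induced by interferons and act in antiviral defence or tune innate signalling, while others repress chromatin, organise the cytoskeleton or turn over muscle proteins. In T cells several members set the strength of receptor and cytokine signalling.

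The samples were CD4 T cells from spleens of C57BL/6 mice, wild type per the labels, magnetically sorted to over 98% purity. They were activated with antibodies against the T cell receptor and CD28 for 2 days under either of the conditions below and harvested after 3 further days. The CD103+ Th1 group received 3 ng/ml of IL-4, 10 ng/ml of IFN-γ and 3 ng/ml of TGF-β. The Th1 group received 1 ng/ml of IL-12 and 1 µg/ml of the antibody 11B11 against IL-4. CD103 is the integrin chain that binds E-cadherin on epithelium. The number of mice is not given in the sources used here. Each group is 1 Affymetrix array, so no test or p-value is given, and a difference below is one between these 2 arrays. RNA came from whole cultures, in which fewer cells of a type and less RNA per cell cannot be told apart.

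The signals are linear and in arbitrary units, with medians of 78.0 on the CD103+ Th1 array and 78.8 on the Th1 array. Signals under the median over both arrays, 78.5, were set to that floor. No ratio was formed for a gene below it in both cultures, and where a single array was below it the fold is a lower bound, marked by "at least". The T cell genes Cd3e, Cd3g, Cd4, Cd247 and Cd28 lay above the floor on both arrays. Each gene is described by its brightest probe set unless others are named, and levels of different genes are not set against each other. The floor was passed by 33 of the 58 members in both cultures, by 2 in CD103+ Th1 only, by 4 in Th1 only and by 19 in neither.

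Within the family the interferon-inducible members were higher in CD103+ Th1 and the rest were not shifted together. All 11 interferon-inducible members with a probe set were measured and had a higher signal in CD103+ Th1, and 6 of them were at least 2-fold higher: Trim12c, Trim12a, Trim14, Trim30a, Trim30d and Trim34a. Their median log2 ratio, CD103+ Th1 over Th1, was 1.04, against -0.08 for the 28 other measured members and -0.03 for all 11194 measured genes. Among those other members, 0 were at least 2-fold higher and 1, Trim37, was at least 2-fold lower. Over all measured genes, the share past 2-fold was 5.04% for higher and 4.87% for lower signals in CD103+ Th1. The interferon-inducible list was drawn up from knowledge of the family, with earlier results of these data known. A median over 11 genes of 2 arrays has no replicate error.

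**Figure D1:**
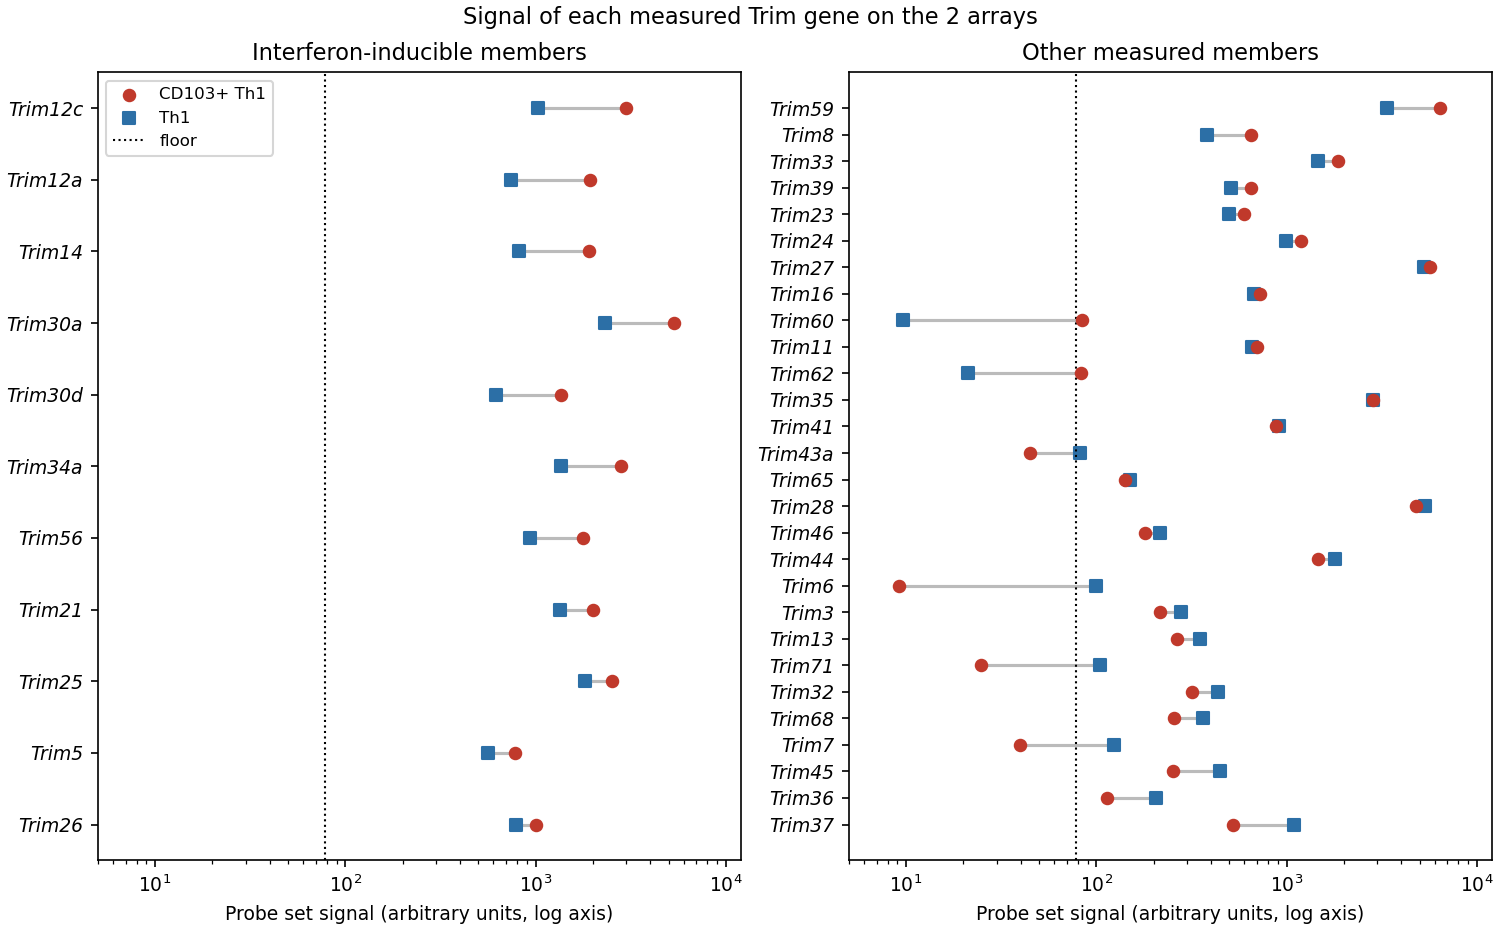
Probe set signal (arbitrary units, log axis) of each of the 39 measured Trim genes on the CD103+ Th1 array (red circles) and the Th1 array (blue squares), with interferon-inducible members on the left, other members on the right and the floor of 78.5 dotted. The red circle lies to the right of the blue square for all 11 interferon-inducible genes and for 11 of the 28 others, and the 6 genes with a symbol left of the floor have bounds only.

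**Figure D2:**
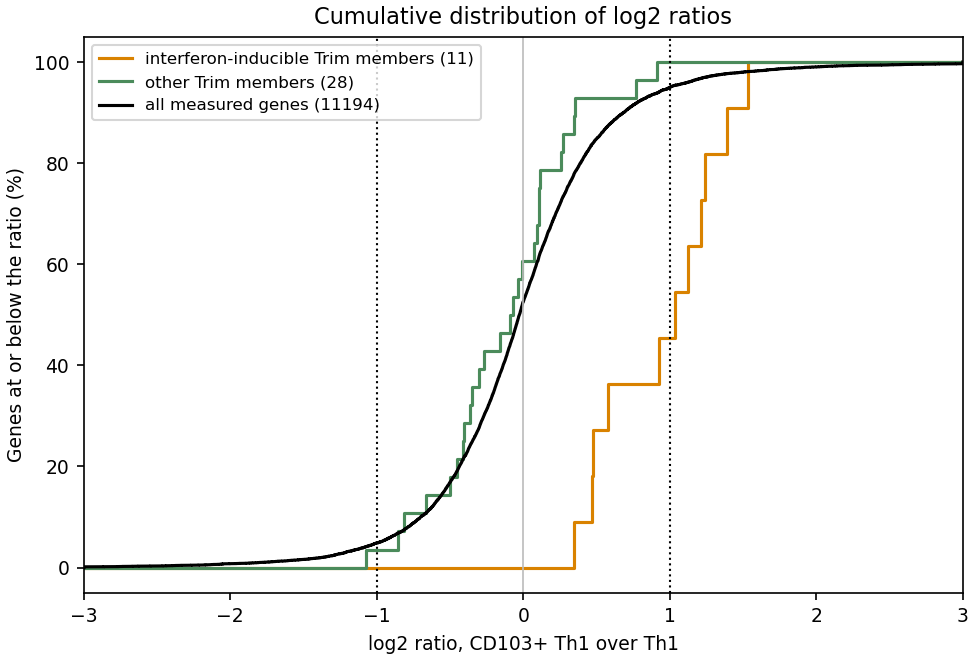
Share of genes (%) at or below each log2 ratio, CD103+ Th1 over Th1, for 11 interferon-inducible Trim members, 28 other Trim members and all 11194 measured genes, with dotted lines at 2-fold. The curve of the interferon-inducible members starts at 0.34, right of 0, while that of the other members runs near the curve of all genes; values beyond 3 on either side are not drawn.

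Of the interferon-inducible members, Trim12c and Trim12a, relatives of primate TRIM5, had the highest ratios by their brightest probe sets. With the mean of probe sets they had log2 ratios of 1.05 and 0.97, under the 1.28 of Trim30a, the 1.25 of Trim30d and the 1.20 of Trim14. Trim12c had a signal of 2996 in CD103+ Th1, against 1033 in Th1, 2.90-fold higher. Trim12a had 1939 in CD103+ Th1, against 740 in Th1, 2.62-fold higher. Both ratios depend on the probe set, since the dimmer probe sets gave log2 ratios of 0.56 for Trim12c and 0.54 for Trim12a, both under 2-fold. Trim5 itself, whose primate namesake blocks retroviral capsids, had 784 in CD103+ Th1, against 566 in Th1, 1.39-fold higher on its 1 probe set.

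Trim30a, which in mouse macrophages restrains NF-κB signalling below Toll-like receptors, had 5372 in CD103+ Th1, against 2314 in Th1, 2.32-fold higher. Its second probe set, with 3605 in CD103+ Th1, against 1418 in Th1, gave a log2 ratio of 1.35 beside 1.22. Trim30d, a close paralog, had 1354 in CD103+ Th1, against 620 in Th1, 2.18-fold higher, with 1.13 and 1.37 as the log2 ratios of its probe sets. For both paralogs all measured probe sets were past 2-fold. Trim34a had 2798 in CD103+ Th1, against 1364 in Th1, 2.05-fold higher, close to the threshold, and its other probe set lay under the floor on both arrays. The 2 probe sets annotated to both Trim34a and Trim34b had log2 ratios of 0.57 and -0.05, neither past 2-fold. Trim30a, Trim30d, Trim12a, Trim12c and Trim34a are related genes, whose transcripts were not compared here, and their probe sets may read RNA of more than 1 of them.

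The other interferon-inducible members are ligases or adaptors of pathways that sense viral nucleic acid. Trim14, an adaptor of mitochondrial antiviral signalling, had 1922 in CD103+ Th1, against 814 in Th1, 2.36-fold higher, and its second probe set was at least 2.23-fold higher. Trim56, which promotes signalling by the DNA sensor pathway of STING, had 1787 in CD103+ Th1, against 941 in Th1, 1.90-fold higher, just under the threshold. Trim21, the cytosolic antibody receptor that sends antibody-coated virus to the proteasome, had 2004 in CD103+ Th1, against 1345 in Th1, 1.49-fold higher. Trim25, the ligase that activates the RNA sensor RIG-I, had 2525 in CD103+ Th1, against 1820 in Th1, 1.39-fold higher, while over 3 probe sets the log2 ratio spanned 0.32 to 0.89. Trim26, which lies in the class I region of the major histocompatibility complex, had 1000 in CD103+ Th1, against 788 in Th1, 1.27-fold higher. These members were higher by less than 2-fold except Trim14, and Trim26 had the smallest ratio of the 11.

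**Figure D3:**
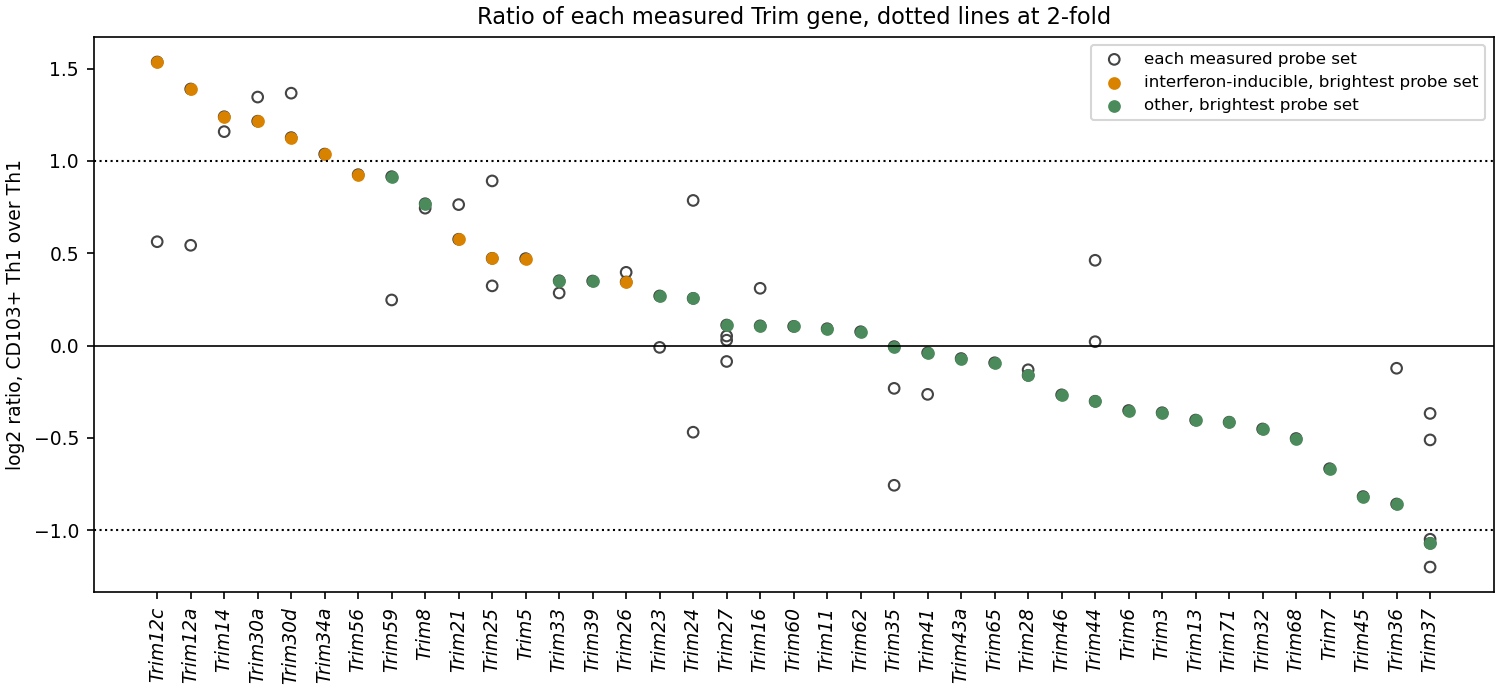
Log2 ratio, CD103+ Th1 over Th1, of each of the 39 measured Trim genes in descending order, with filled points for the brightest probe set (orange for interferon-inducible members, green for others), open circles for each measured probe set and dotted lines at 2-fold. Orange points fill the first 7 places, and Trim37 in the last place has 5 probe sets below 0; Trim6, Trim7, Trim43a, Trim60, Trim62 and Trim71 are drawn at their bounds.

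The members at least 2-fold higher lay in 1 stretch of the genome, with the exception of Trim14 on chromosome 4. In the mouse gene table of GRCm38.p6, a block on chromosome 7 runs through 21 genes from Trim6 to Trim30e-ps1, of which 11 are Trim genes or pseudogenes, and 7 of these had a probe set of their own. The block holds 0 other genes with a probe set of 1 gene. Of these 7, 5 were past 2-fold upwards, Trim5 was 1.39-fold higher, and Trim6, at the edge of the block, was at least 1.28-fold lower, whose signal was 9.17 in CD103+ Th1, against 100 in Th1. Of the 10 nearest measured genes around the block, 8 had a log2 ratio below 0 and 0 passed 2-fold. Over all 11194 measured genes, 5885 were below 0, 5.04% passed 2-fold upwards and 4.87% downwards. A count of 0 of 10 past 2-fold thus does not set the neighbours apart. The nearest measured gene before it was Ubqlnl, at least 1.10-fold lower in CD103+ Th1, and the nearest after it was Fam160a2, 1.40-fold lower, separated from it by 56 genes, 42 of them olfactory receptor genes or pseudogenes. The 5 nearest measured genes after the block had log2 ratios from -0.83 to -0.24, and the 5 before it, which include Trim21 and Trim68, had ratios from -0.56 to 0.58, with Ubqlnl at its bound. The 5 interferon-inducible members outside the block had a median log2 ratio of 0.58, with 1 of 5 at least 2-fold higher.

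**Figure D4:**
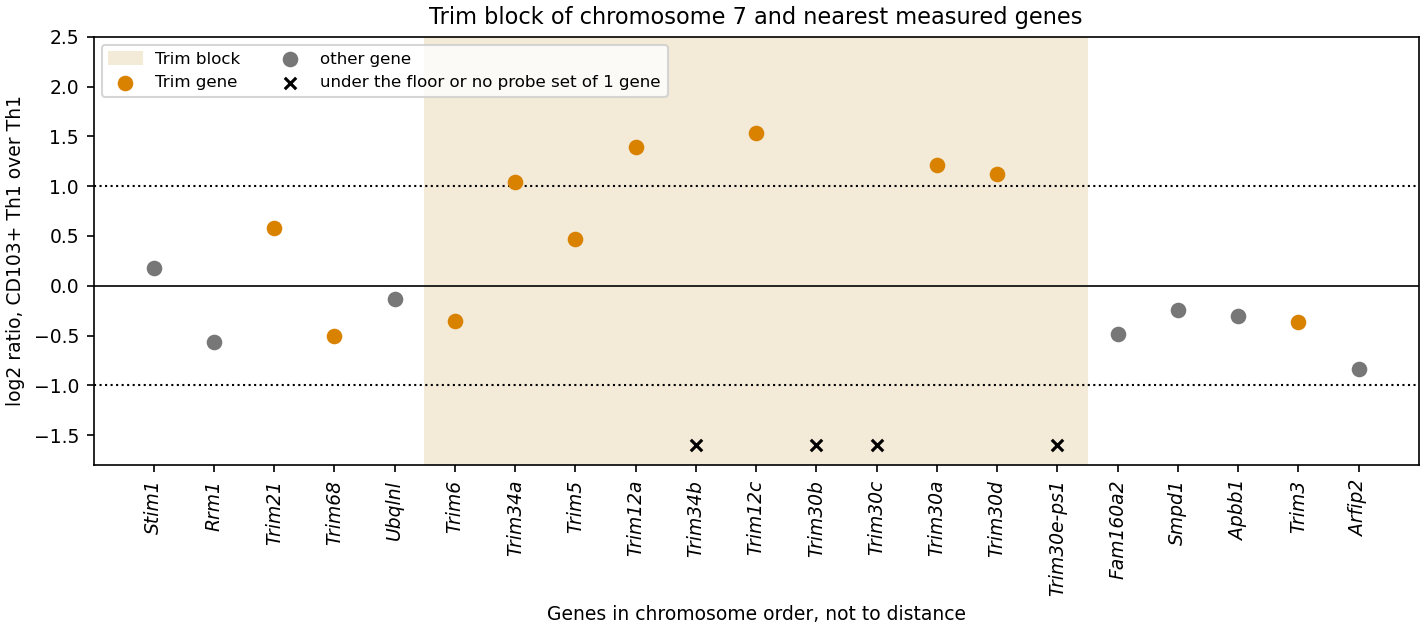
Log2 ratio, CD103+ Th1 over Th1, of the Trim genes of the chromosome 7 block (shaded) and of the 5 nearest measured genes on each side, in chromosome order and not to distance, with Trim genes in orange, other genes in grey, dotted lines at 2-fold and crosses for genes with no value here. The 5 points above the upper dotted line are Trim34a, Trim12a, Trim12c, Trim30a and Trim30d, and no gene outside the shaded block passes either line; Trim6 and Ubqlnl are drawn at their bounds.

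Since 5 of the 7 measured block members passed 2-fold upwards, the promoters of the family were read in the RefSeq table of GRCm38.p6, which holds 250 bases before and 50 after each transcript start. Of the 58 members, 47 had at least 1 such window. Each window was searched on both strands for GAAANNGAAA, the core letters of the element through which interferon regulatory factors act. The motif stood in windows of 8 of the 10 interferon-inducible members in the table and of 0 of the 20 other measured members. Among all measured genes with a window, 3.70% held it, as did 3.44% of all 32851 windows. Of the 17 members under the floor with a window, 1, Trim2, held it. A match is a run of letters and not a shown binding site. For each of the 8 genes 1 window of 30 bases is printed on the strand of the gene, with the motif in capitals, to show how far the copies share it.
Trim34a: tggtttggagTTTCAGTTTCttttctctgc
Trim5: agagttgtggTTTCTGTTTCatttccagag
Trim12a: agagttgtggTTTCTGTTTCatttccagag
Trim12c: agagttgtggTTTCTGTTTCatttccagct
Trim30a: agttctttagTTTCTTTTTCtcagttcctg
Trim30d: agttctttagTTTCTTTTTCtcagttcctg
Trim21: ctgagagGAAACTGAAAGTGAAAtttggac
Trim26: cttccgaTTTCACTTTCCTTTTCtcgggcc

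These windows lie at chr7:104244457-104244486 on the plus strand for Trim34a and, on the minus strand, at chr7:104288136-104288165 for Trim5, chr7:104315466-104315495 for Trim12a, chr7:104353359-104353388 for Trim12c, chr7:104465210-104465239 for Trim30a and chr7:104507871-104507900 for Trim30d. Those of Trim21 and Trim26 lie at chr7:102565447-102565476 on the minus strand and chr17:36836979-36837008 on the plus strand. The 30 bases of Trim5 and Trim12a were identical, and those of Trim12c matched them at 28 positions. The printed 30 bases of Trim30a and Trim30d were identical too, while a second Trim30a start, with a window at chr7:104446104-104446133 that also held the motif, matched Trim30d at 26 positions. Those of Trim34a matched Trim12a at 18. Trim21 and Trim26 held 2 overlapping copies of the motif each. The ratio of Trim5 was 1.39-fold, against 2.62-fold for Trim12a by its brightest probe set and 1.46-fold by its dimmer one. Counted from the transcript start, the motif began at position -49 in Trim5 and at position 11 in Trim12a. Whether the motif bears on either ratio was not tested. Among the interferon-inducible members of the table, Trim25 and Trim56 lacked the motif in this window. The bases before the start of Trim30a, a gene with both probe sets past 2-fold, and of Trim12c, the member with the highest ratio by its brightest probe set, are given at greater length, again with the motif in capitals.
Trim30a: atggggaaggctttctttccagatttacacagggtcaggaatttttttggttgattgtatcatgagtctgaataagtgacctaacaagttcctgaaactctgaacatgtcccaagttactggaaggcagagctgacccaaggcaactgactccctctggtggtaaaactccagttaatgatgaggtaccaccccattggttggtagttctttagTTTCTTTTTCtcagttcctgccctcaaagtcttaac
Trim12c: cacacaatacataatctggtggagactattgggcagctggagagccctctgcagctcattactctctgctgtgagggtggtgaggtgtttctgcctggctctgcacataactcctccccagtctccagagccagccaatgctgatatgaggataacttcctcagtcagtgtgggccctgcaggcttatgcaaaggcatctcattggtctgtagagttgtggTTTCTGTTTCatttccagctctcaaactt

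The first of these runs is chr7:104465194-104465443 and the second chr7:104353350-104353599, both on the minus strand, and each ends at the base before the transcript start. The motif begins at position -36 in Trim30a and at position -29 in Trim12c, counted from that start. Over all measured genes in the table, 40 of the 338 with the motif, 11.8%, were past 2-fold upwards in CD103+ Th1, and 13, 3.85%, downwards. Of the 8790 without it, 4.65% were past 2-fold upwards and 4.81% downwards. The median log2 ratios were 0.06 with the motif and -0.03 without it. The 338 genes with the motif include 8 Trim members, 5 of them past 2-fold upwards. All 8 measured Trim members with the motif belong to the interferon-inducible list, so the motif and the list cannot be told apart within the family.

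Among the other members, Trim59 and Trim8 were the ones at least 1.5-fold higher, where 12.4% of all measured genes were. Trim59, a membrane-anchored member, had 6377 in CD103+ Th1, against 3383 in Th1, 1.89-fold higher, though its dimmer probe set had a log2 ratio of 0.25. Trim8, which binds the cytokine signalling inhibitor SOCS1, had 653 in CD103+ Th1, against 383 in Th1, 1.70-fold higher, with log2 ratios of 0.77 and 0.74 on 2 measured probe sets.

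Of the 28 other members, 4 were at least 1.5-fold lower, and 13.4% of all measured genes were. Trim37, a ligase of peroxisomes and centrosomes whose loss causes a growth disorder in humans, had 520 in CD103+ Th1, against 1093 in Th1, 2.10-fold lower. All 5 of its probe sets were below 0, with log2 ratios from -1.20 to -0.37, and their mean of -0.84 was under 2-fold. Trim36 had 114 in CD103+ Th1, against 207 in Th1, 1.81-fold lower, but its second probe set had a log2 ratio of -0.12. Trim45 had 253 in CD103+ Th1, against 446 in Th1, 1.76-fold lower. Trim7 was at least 1.59-fold lower, with 39.6 in CD103+ Th1, under the floor, and 125 in Th1.

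Of the 3 measured chromatin members of the TIF1 group, 0 passed 2-fold. Trim28, which encodes the corepressor KAP1 that silences retroelements for zinc-finger proteins, had 4788 in CD103+ Th1, against 5354 in Th1, 1.12-fold lower. Trim33, whose product restrains SMAD4 in TGF-β signalling, had 1872 in CD103+ Th1, against 1467 in Th1, 1.28-fold higher. Trim24 had 1185 in CD103+ Th1, against 993 in Th1, 1.19-fold higher, but its 3 probe sets ran from -0.47 to 0.79 on the log2 scale. Trim66, the fourth of the group, lay under the floor on both arrays. Of 12 measured partners of KAP1 in silencing, 0 differed by 2-fold, and their median log2 ratio was 0.00. Over all measured genes, 5.04% were past 2-fold upwards and 4.87% downwards. Counts of 0 in groups this small do not set these genes apart from all measured genes.

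Members that regulate signalling and cell death had a median log2 ratio of 0.05 over 8 measured genes, 0 of them past 2-fold. With 5.04% of all measured genes past 2-fold upwards and 4.87% downwards, 0 of 8 does not set these members apart. Trim27, which limits calcium entry and T cell receptor signalling in CD4 T cells, had 5675 in CD103+ Th1, against 5254 in Th1, 1.08-fold higher. Trim35 had 2850 in CD103+ Th1, against 2861 in Th1, 1.00-fold different, with dimmer probe sets at -0.23 and -0.76. Trim39 was 1.27-fold and Trim23 1.20-fold higher, whereas Trim13 was 1.32-fold, Trim65 1.07-fold and Trim41 1.03-fold lower. The 3 measured members with NHL repeats, which include RNA-binding regulators of development, had lower signals in CD103+ Th1. So did 5885 of all 11194 measured genes, and the direction does not set these 3 apart. Trim32 was 1.37-fold lower, Trim3 1.29-fold and Trim71, with 24.7 in CD103+ Th1, against 105 in Th1, at least 1.33-fold.

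The muscle members Trim54, Trim63 and Trim72 lay under the floor on both arrays. So did Trim2, Trim9, Trim10, Trim15, Trim17, Trim29, Trim31, Trim40, Trim42, Trim47, Trim61, Trim66, Trim67, Trim69, Trim75 and Trim80. Signals under the floor do not show that these genes are silent. Of the members not named above, Trim11, Trim16, Trim44, Trim46 and Trim68 had log2 ratios from -0.50 to 0.11, and 3 had only bounds. Trim60 had 84.3 in CD103+ Th1, against 9.66 in Th1, at least 1.07-fold higher. Trim62 had 82.6 in CD103+ Th1, against 21.2 in Th1, at least 1.05-fold higher. Trim43a had 44.6 in CD103+ Th1, against 82.4 in Th1, at least 1.05-fold lower. The signals of these 3 are all near or under the floor. The probe sets of Trim44 disagreed in sign and ran from -0.30 to 0.46.

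Among 14 measured genes of interferon receptors and signalling, 13 had a higher signal in CD103+ Th1. Of the 14, 5 were past 2-fold upwards and 0 downwards, with a median log2 ratio of 0.74. The shares over all measured genes were 47.4% above 0, 5.04% past 2-fold upwards and 4.87% downwards. Ifngr2, the second chain of the IFN-γ receptor, had 920 in CD103+ Th1, against 115 in Th1, with log2 ratios of 1.51 and 3.00 on its 2 probe sets. Irf9, an interferon regulatory factor, had 3064 in CD103+ Th1, against 957 in Th1, 3.20-fold higher. The transcription factor genes Irf1 and Irf7 had log2 ratios of 2.14 and 1.79. The interferon-induced gene Usp18 had a ratio of 0.06, and Ptpn2, a phosphatase that restrains cytokine signalling, had one of -0.47.

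Of 13 measured genes of the RIG-I and ISG15 pathways, in which Trim25 acts, 3 were past 2-fold upwards and 0 downwards, with a median log2 ratio of 0.60. The 3 are the enzymes that attach the ubiquitin-like protein ISG15. For all measured genes the shares past 2-fold were 5.04% upwards and 4.87% downwards. Ube2l6 was at least 3.92-fold higher, with 307 in CD103+ Th1, against 52.9, under the floor, in Th1. Uba7, the activating enzyme, was 2.16-fold higher and Herc6, the ligase in mouse, 2.01-fold higher. The Herc6 ratio is close to the threshold, and its 4 probe sets ran from 0.42 to 1.01 on the log2 scale. The RNA sensor genes Ddx58, Ifih1 and Dhx58 had log2 ratios of 0.52, 0.07 and -0.42. The 3 probe sets of Ddx58 ran from 0.52 to 1.31 and the 3 of Dhx58 from -0.65 to 0.13.

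Of 9 genes of tripartite motif or related proteins that carry other symbols, 4 were under the floor, and 0 of the 5 measured passed 2-fold on the brightest probe set. Pml, which forms nuclear bodies and is induced by interferons, had 1169 in CD103+ Th1, against 690 in Th1, 1.69-fold higher, with log2 ratios of 0.76 and 1.05. Mid1, a ligase of microtubules, was 1.49-fold lower. Of the ubiquitin-conjugating enzymes that serve these ligases, 11 were measured and 0 differed by 2-fold on the brightest probe set. Their median log2 ratio was -0.17, and -0.07 with the mean of probe sets. The 7 probe sets of Ube2d3 ran from -0.31 to 1.03 on the log2 scale. Beside the shares over all measured genes, 5.04% upwards and 4.87% downwards, 0 of 5 and 0 of 11 do not set these genes apart.

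Among markers of cells outside the CD4 T lineage, some were higher in CD103+ Th1, and their part in the Trim ratios was not tested. Beside the marker counts stand the shares over all measured genes, 5.04% past 2-fold upwards and 4.87% downwards. Of 9 B cell markers with a probe set, 2 of 4 measured were at least 2-fold higher, and the summed signal was 8296 in CD103+ Th1, against 2941 in Th1, most of it from Ighm. Ighm had 7712 in CD103+ Th1, against 2443 in Th1, and its 4 probe sets ran from -0.53 to 1.84 on the log2 scale. Cd79b, a chain of the B cell receptor, had 244 in CD103+ Th1, against 75.8 in Th1, at least 3.11-fold higher. The 5 B cell markers with no ratio include Cd79a, Ms4a1 and Pax5. Of 11 myeloid and dendritic cell markers, 6 were measured, 2 of them past 2-fold upwards and 1 downwards. The ratio was below 0 for 4 of the 6, with a median log2 ratio of -0.07. Summed signals were 1917 in CD103+ Th1, against 881 in Th1, with most of the CD103+ Th1 sum from H2-Aa and Mpeg1. H2-Aa, an MHC class II chain, had 798 in CD103+ Th1, against 58.5 in Th1, at least 10.2-fold higher, and Mpeg1 had 660 in CD103+ Th1, against 5.75 in Th1, at least 8.41-fold higher. Cd68 had 104 in CD103+ Th1, against 233 in Th1. The 5 myeloid markers with no ratio, under the floor in both cultures, include Lyz2, Itgam and Cd14. Of 6 markers of CD8 T, γδ T and NK cells with a probe set, 2 of 4 measured were at least 2-fold higher. The γδ T cell receptor genes of the list, Tcrg-C1 and Trdc, were not among the 6. Summed signals were 7064 in CD103+ Th1, against 3415 in Th1, of which Klrk1 gave 3293 and 2163. Cd8a had 2054 in CD103+ Th1, against 466 in Th1, 4.41-fold higher, while over 5 probe sets the log2 ratio spanned 0.24 to 2.16. Cd8b1 had 1593 in CD103+ Th1, against 697 in Th1, 2.28-fold higher. Ncr1 and Klra8 were under the floor on both arrays.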

How the data were processed

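Probe set signal intensities of both arrays were used as deposited, on a linear scale in arbitrary units. The submitters' processing notes name the software GCOS, while its version, scaling target and filters are not given in the sources used here. Both arrays had a 2% trimmed mean of 498, so no further scaling was applied. Precision is limited by how few arrays there are.

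The platform annotation gave 1 gene symbol to 34945 of 45037 probe sets, more than 1 to 932 and listed none for 9160. Symbols were updated by gene identifier to GRCm38.p6 (34741 probe sets matched). Signals were set to a floor at the 50th percentile of both arrays, a ratio was taken per gene on its brightest measured probe set, and genes past 2-fold were counted, with Python 3.11.15, NumPy 2.4.6, pandas 2.3.3 and SciPy 1.17.1. The counting recovered planted ratios on simulated data, where they were set in genes well above the floor and alike in all probe sets. That check does not cover members near the floor or genes whose probe sets disagree.

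Members and lists were chosen with earlier results of these data known. Named genes are the measured interferon-inducible and TIF1 members, other members at least 1.5-fold different and the 5 brightest others, with up to 4 genes of a pathway list past 2-fold. Members outside this rule, Ddx58, Ifih1, Dhx58, Usp18, Ptpn2, Pml, Mid1, neighbours and markers were named after their values were seen. Alternatives changed the scaling, the floor, the probe set rule, the threshold and the list of interferon-inducible members. Probe sets of several genes were left out of the comparison. A second motif searched in the same promoter windows is not reported here.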

Additional observations from a re-analysis of the deposited data

Results flagged for a closer look

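A probe set annotated to both Trim30d and Trim30a, left out of the comparison because it reads more than 1 gene, read 1893 in CD103+ Th1 and 809 in Th1, a log2 ratio of 1.23. It is listed because it was not used above and lay over its level in Th1 by more than 2-fold. Of the 5 probe sets annotated to a Trim gene together with another gene, 1 stayed below the floor in both cultures, and the one described was the only one past 2-fold.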

How the results depend on the processing

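No paired analysis was possible because each group has 1 array, and no sample could be left out. All measured interferon-inducible members kept a ratio above 0 with equal medians, quantile normalization, either other floor, the pseudocount and the mean of probe sets, while a broader list added Trim6, which is below 0. Their median log2 ratio lay between 0.97 and 1.13 in these settings and with the other lists, but was 0.85 over 6 genes when probe sets whose suffix letters mark shared transcripts were dropped. That setting left 3 of them at least 2-fold higher and 4 members of the family past 2-fold, with Trim12a at 0.54, and at 4-fold 0 members were called in any group. With the mean of probe sets, 5 interferon-inducible members stayed past 2-fold, and 0 of the other members differed by 2-fold, so that Trim37 was not called. The counts over all members and over the other members past the threshold were 15 and 9 with the floor at the 25th percentile, 12 and 6 with the pseudocount and 13 and 6 at 1.5-fold, against 7 and 1 as reported. The strict list, which moves Trim14 among the others, gave 2 for the other members. The median of the other members was 0.11 with the floor at the 75th percentile, where 14 of them were measured. Trim8, at 0.47 there, Trim7, at -1.65 with the floor at the 25th percentile, and Trim35, which is near 0, moved with the setting. Where a setting's own construction does not show why a value moved, the cause was not tested. Values near the floor carry most background.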
